A study of Homo sapiens with 16 samples.

Results

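The genes described here are 44 human genes that encode proteins secreted by liver cells into the blood plasma. They were chosen by gene symbol, as carriers, protease inhibitors, coagulation factors, fibrinogen chains, protein C system genes and complement genes, out of 67938 gene identifiers in each deposited count table, and all 44 were found. By role they comprise 7 carriers (ALB, AFP, TTR, TF, AHSG, HP and HPX), 9 acute phase proteins and protease inhibitors (ORM1, A2M, ITIH2, ITIH3, SERPINA1, SERPINC1, SERPIND1, SERPINF2 and SERPING1) and 9 coagulation proteins (F2, F5, F7, F9, F10, F11, F12, F13B and KNG1). The others are the 3 fibrinogen chains (FGA, FGB and FGG), 3 genes of the plasminogen and protein C system (PLG, PROC and PROS1) and 13 complement genes (C3, C5, C6, C8A, C8B, C9, CFB, CFI, C1R, C1S, MASP1, MASP2 and MBL2).

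RNA had been sequenced from the cytoplasm and the nucleus of HepG2 and SNU-449, both labelled as hepatocellular carcinoma cells. At 48 h after transfection the cells held either siPANAD-1 together with siPANAD-2, small interfering RNAs named for PANAD, the product of C7orf25, or the negative control NC. Each line had 4 groups of 2 libraries, namely siPANAD cytoplasm, siPANAD nucleus, NC cytoplasm and NC nucleus, described as biological duplicates, which made 16 libraries with 16238235 to 30321908 counts. The series title names PANAD as a partner of the mRNA export receptor NXF1 in the export of CDK6 mRNA, and the comparisons asked how the RNA of each fraction, and its ratio between the fractions, differed after siPANAD.

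Hepatocytes make most of the proteins of plasma and pass them through the secretory pathway into the blood. Coagulation factors circulate as inactive precursors that cut one another in a cascade ending in thrombin, which turns fibrinogen into fibrin; protease inhibitors hold the cascade in check, and plasmin dissolves the clot. Complement works in a like way: the classical, lectin and alternative pathways all cut C3 and then C5, and the terminal components build a pore in a target membrane. Transcription of many of these genes in liver is known to depend on the factors HNF4 and C/EBP, and interleukin-6 raises the acute phase genes among them.

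The targeted gene could not serve as a check, since C7orf25 had between 0 and 7 counts per library: in HepG2 0 and 0 in siPANAD cytoplasm, 1 and 4 in siPANAD nucleus, 0 and 1 in NC cytoplasm and 0 and 2 in NC nucleus, and in SNU-449 0 and 0, 3 and 4, 3 and 2, and 5 and 7 in the same order. CDK6 fell in all 4 comparisons, by 1.71 and 0.56 on the log2 scale in HepG2 cytoplasm and nucleus and by 2.43 and 0.80 in SNU-449. Levels are given as CPM, a gene's counts relative to the library's total after trimmed-mean scaling, and pairs of values are replicate 1 and replicate 2. The nuclear RNAs MALAT1 and NEAT1 summed to 1249.8 to 2628.2 CPM in HepG2 nuclei and 80.5 to 117.0 CPM in HepG2 cytoplasm, and to 727.6 to 2384.8 and 9.71 to 20.4 CPM in SNU-449. The 2 HepG2 cytoplasm NC libraries stood apart most, with a chi-square of 33.0 per degree of freedom against 4.48 to 12.3 in the other pairs, and replicate 2 of that pair was also the deepest library. Of 16 hepatocyte markers outside the members, all had counts in each HepG2 group, with sums of 9232.8 to 21136.6 CPM. In SNU-449 the sums were 75.8 to 121.0 CPM, with APOB and APOC3, genes of apolipoproteins that hepatocytes secrete, at 0 in all groups and 11 to 13 of the 16 with any count in a group. Of 10 immune and blood markers, PPBP was at 0 in every group of both lines and the summed level was 69.0 to 623.3 CPM in HepG2, nearly all of it LYZ, and 13.8 to 30.8 CPM in SNU-449.

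HepG2 held RNA of most of the 44 genes, over a wide range of levels, and SNU-449 held far less of it. At least 10 counts were reached by 37 to 40 members per HepG2 library and by 12 to 20 per SNU-449 library. Only F9, coagulation factor IX, had 0 counts in all 8 HepG2 libraries, and C9, the last component of the complement pore, had 1 count there in all. In SNU-449, 8 members had 0 counts in all 8 libraries (A2M, F5, F7, KNG1, C6, C8A, C8B and MBL2), which allows up to 3 counts, or 0.154 to 0.176 CPM before scaling, per library, and 16 members had under 10 counts over the 8 libraries together. The members took 4.21% and 4.05% of all counts in HepG2 siPANAD cytoplasm and 4.08% and 4.22% in siPANAD nucleus, against 3.61% and 3.19% in NC cytoplasm and 4.31% and 4.22% in NC nucleus. In SNU-449 the shares were 0.0151% and 0.0134% in siPANAD cytoplasm and 0.0916% and 0.0997% in siPANAD nucleus, against 0.0168% and 0.0142% in NC cytoplasm and 0.0705% and 0.0629% in NC nucleus. In HepG2 cytoplasm the share without ALB, AFP and SERPINA1 was 1.90% after siPANAD and 1.83% in NC, means of 2 libraries.

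Compared per kb of transcript, so that long and short mRNAs can be set side by side, the NC cytoplasm of HepG2 was led by AHSG (fetuin-A, 3826.7 ± 601.3 CPM per kb, SD, n = 2), ALB (serum albumin, 2790.2 ± 49.7) and SERPINA1 (alpha-1-antitrypsin, 2394.3 ± 676.2). Both AHSG libraries lay above those of ALB, while ALB lay within the spread of SERPINA1. By this measure the next 2 were AFP (637.2 ± 39.1 CPM per kb) and C3 (630.3 ± 146.4), which did not differ beyond their spread either. TF was set against an annotated transcript of 20602 bases, which placed it at 189.5 CPM per kb. Its level before that division was 3903.5 CPM, against 2076.6 for AFP and 3317.4 for C3, so its place depends on the transcript chosen. After siPANAD the order in the cytoplasm was SERPINA1 (4913.2 ± 128.9 CPM per kb), AHSG (4815.4 ± 146.9) and ALB (3390.3 ± 162.7), the first 2 within each other's spread. In NC cytoplasm of SNU-449 the top members were FGB (31.2 ± 4.15 CPM per kb), FGG (17.7 ± 2.62) and C3 (12.6 ± 0.647), and after siPANAD C3 (20.6 ± 3.31) stood above FGB (11.1 ± 0.790) and FGG (6.41 ± 0.840). The smallest gap between the lines was that of FGB, at 40.2 ± 5.31 CPM per kb in HepG2 and 31.2 ± 4.15 in SNU-449 NC cytoplasm. ALB, at 9303.9 and 9541.1 CPM in HepG2 NC cytoplasm and 0 counts in both SNU-449 NC cytoplasm libraries, was at least 43536-fold higher in HepG2 when set against 3 counts per library. All 39 members tested in that comparison were higher in HepG2 by edgeR (36.9% of all genes were higher and 34.3% lower); they had been chosen as liver genes and 19 of them failed the SNU-449 filter and entered through HepG2 counts, so the count is a description, and FGB lost its call without HepG2 cytoplasm NC replicate 1 or SNU-449 cytoplasm NC replicate 2 (adjusted p = 0.144 and 0.182) and by DESeq2. On the same floor A2M was at least 6985-fold and ITIH2 at least 5007-fold higher in HepG2. In bulk RNA of this kind, fewer cells that express a gene and less RNA per cell cannot be told apart.

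**Figure D1:**
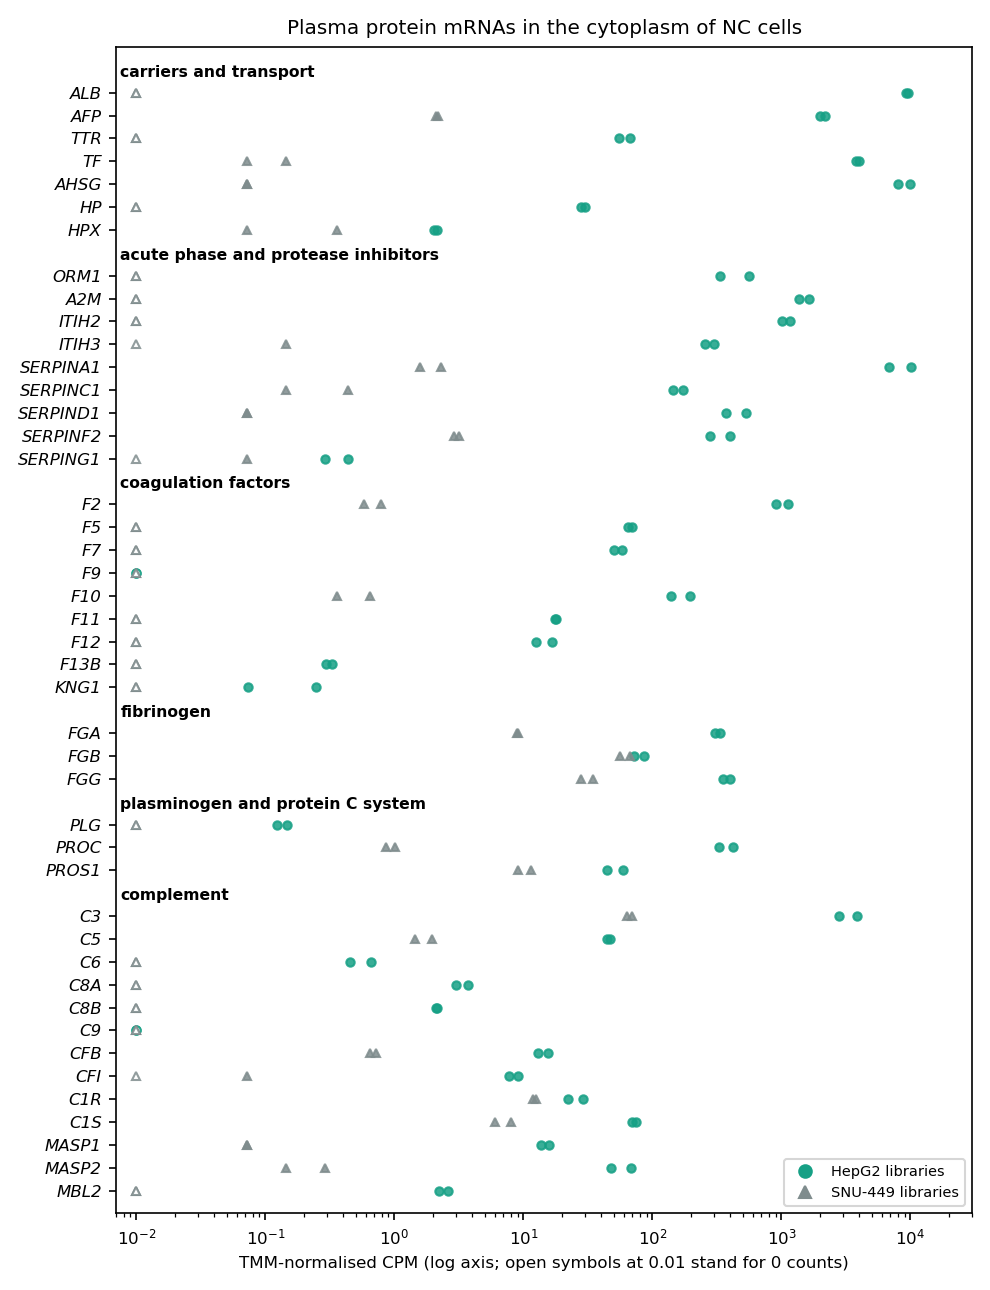
Level of each of the 44 members in NC cytoplasm, in CPM on a log axis, by role. Points are the 2 libraries of HepG2 and of SNU-449, and open symbols at the left edge mark libraries with 0 counts; nearly all HepG2 points lie far above the SNU-449 points, and FGB and C1R come closest.

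In HepG2 the members changed in both directions after siPANAD. A low-count filter kept 39 members and left out F9, C9, PLG, KNG1 and SERPING1, which held at most 16 counts in any HepG2 library. In the cytoplasm 16 members rose, 9 fell and 14 did not pass an adjusted p of 0.05 (edgeR's quasi-likelihood test with Benjamini-Hochberg adjustment over all genes), where 23.7% of all 17499 genes rose and 24.2% fell. In the nucleus 16 rose, 11 fell and 12 did not pass, where 22.0% of all genes rose and 23.6% fell. The 16 include F13B, which passed the filter only through its siPANAD nucleus libraries. The median log2 fold change of the tested members was 0.34 in the cytoplasm and 0.26 in the nucleus, against 0.00 and -0.03 over all genes. With library totals as the only scaling, 20 members rose and 8 fell in the nucleus, while the median of all genes moved to 0.14. For this and all other alternative settings the share of all genes called is not given. The member counts under them therefore only describe how the calls moved. Leaving out HepG2 cytoplasm NC replicate 1 raised the cytoplasmic count of risen members to 21, with AHSG, ORM1, A2M, F12, C3 and MASP2 among those gained. By DESeq2 ALB and AHSG also passed in the cytoplasm, while HPX and MBL2 there and F13B in the nucleus did not. With library totals ITIH3 and SERPINF2 lost their cytoplasmic calls, and SERPIND1 lost its own with a replicate block. Without HepG2 nucleus siPANAD replicate 2 the nuclear count of fallen members was 7, and without HepG2 cytoplasm siPANAD replicate 1 the cytoplasmic one was 6. Of 6 tested mesenchymal markers 5 fell in each fraction and 1 rose in the nucleus. The list summed to 1668.8 to 1691.6 CPM in siPANAD cytoplasm and 2752.5 to 2855.0 in siPANAD nucleus. In NC it summed to 3299.4 to 3937.1 in the cytoplasm and 5893.5 to 6178.8 in the nucleus. COL1A2, COL6A3, THY1 and TWIST1 were at 0 in NC cytoplasm, and TWIST1 and VIM in NC nucleus. Between the lines in NC cytoplasm, 3 of 11 tested markers were higher in HepG2 and 7 lower (36.9% and 34.3% of all genes). The sums therefore do not rank the lines. Of 15 tested hepatocyte markers 8 rose and 6 fell in the cytoplasm, and 4 rose and 5 fell in the nucleus. Ribosomal protein genes took 18.0% and 17.8% of counts in siPANAD cytoplasm and 10.2% and 10.3% in NC cytoplasm. The part of these in the members' changes was not tested.

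**Figure D2:**
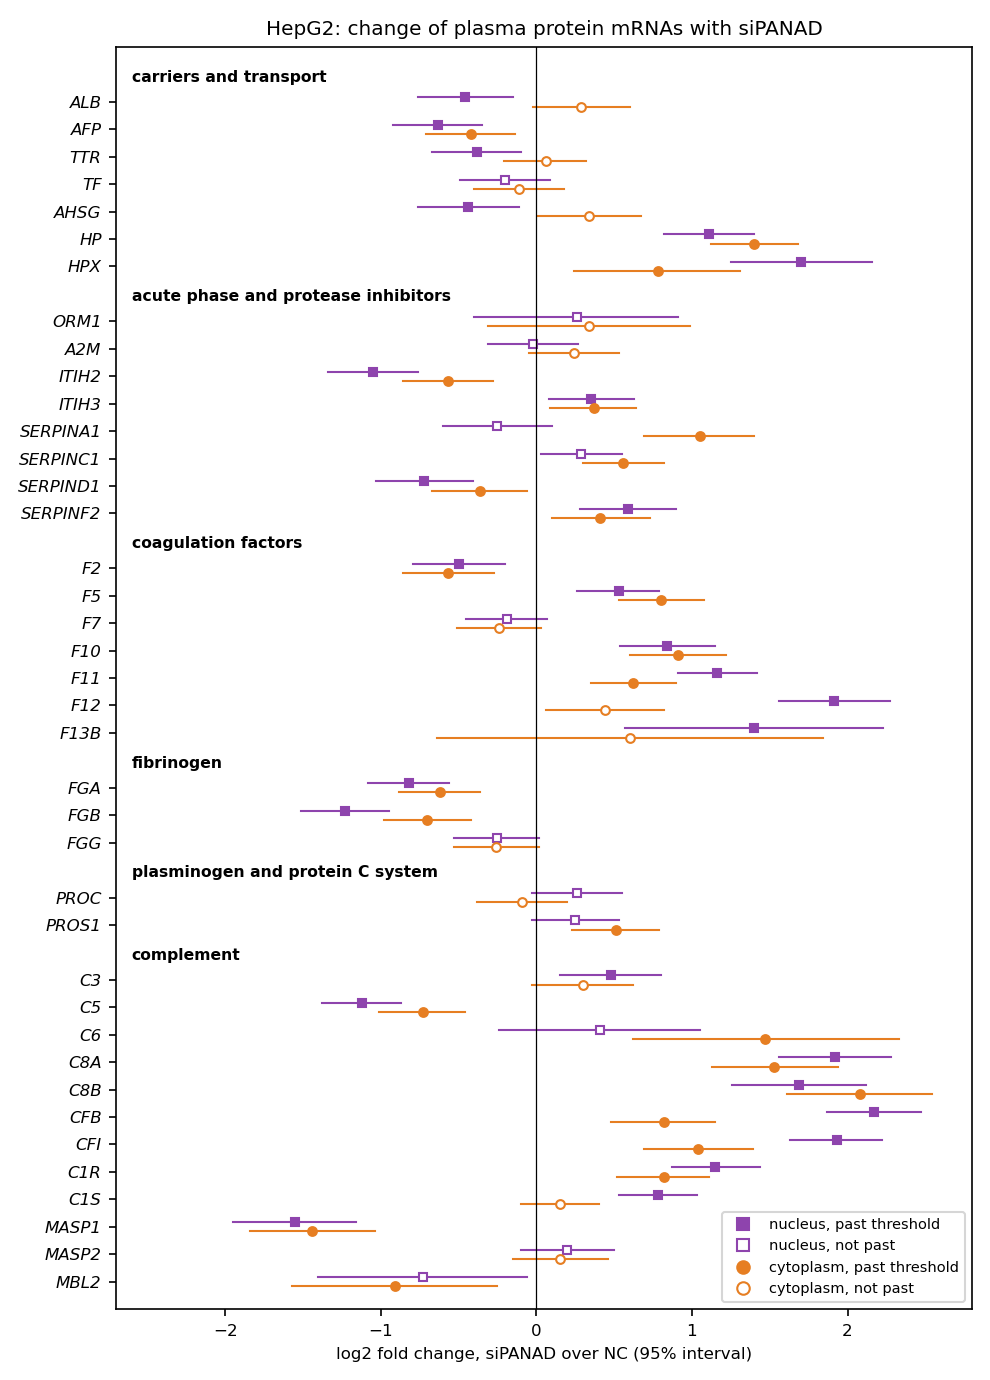
Log2 fold change of the 39 tested members in HepG2 after siPANAD, cytoplasm and nucleus, with 95% intervals, by role; filled points passed an adjusted p of 0.05. Complement genes C8B, C8A, CFB and CFI lie farthest right and MASP1 farthest left, and for most members both fractions lie on the same side of 0.

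Of the called members, 12 rose in both fractions and 8 fell in both, while no member rose in 1 fraction and fell in the other. The share of all genes called alike in both fractions is not given. These counts therefore only describe the members, and whether they moved alike more often than genes at large was not tested. The 12 were HP, HPX, ITIH3, SERPINF2, F5, F10, F11, C8A, C8B, CFB, CFI and C1R, and the 8 were AFP, ITIH2, SERPIND1, F2, FGA, FGB, C5 and MASP1. SERPINA1, SERPINC1, PROS1 and C6 passed as higher in the cytoplasm only, and F12, F13B, C3 and C1S in the nucleus only. MBL2 passed as lower in the cytoplasm only, and ALB, TTR and AHSG in the nucleus only. TF, ORM1, A2M, F7, FGG, PROC and MASP2 passed in neither.

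The carriers bring lipids, hormones, iron and haem through the plasma. In HepG2, 2 of 7 rose and 1 fell in the cytoplasm (23.7% and 24.2% of all genes). In the nucleus 2 rose and 4 fell (22.0% and 23.6%). Haptoglobin (HP), which binds free haemoglobin, was at 71.5 and 78.6 CPM in siPANAD cytoplasm and 33.2 and 35.6 CPM in siPANAD nucleus, against 29.4 and 27.6 CPM in NC cytoplasm and 14.0 and 17.9 CPM in NC nucleus. All siPANAD libraries lay above the NC libraries of their fraction, and HP rose 2.63-fold in the cytoplasm (log2 1.40, SE 0.14, adjusted p = 5.0e-09) and 2.16-fold in the nucleus (log2 1.11, SE 0.14). Reads of HP may be shared with the near-identical gene HPR, so its value is uncertain.

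Hemopexin (HPX), the haem carrier, was low throughout, at 3.04 and 3.92 CPM in siPANAD cytoplasm and 6.78 and 7.19 CPM in siPANAD nucleus, against 2.10 and 1.98 CPM in NC cytoplasm and 1.87 and 2.40 CPM in NC nucleus. Its nuclear libraries were well separated and it rose 3.26-fold there (log2 1.70, SE 0.22, adjusted p = 6.9e-07). The cytoplasmic rise was 0.78 on the log2 scale (SE 0.26) and was lost without HepG2 cytoplasm NC replicate 2 (0.74, adjusted p = 0.0771) or siPANAD replicate 2 (0.55, adjusted p = 0.211). AFP, the fetal counterpart of albumin, was at 1488 and 1563 CPM in siPANAD cytoplasm and 996 and 955 CPM in siPANAD nucleus, against 1961 and 2131 CPM in NC cytoplasm and 1535 and 1489.7 CPM in NC nucleus. It fell by 0.42 on the log2 scale in the cytoplasm (SE 0.14, adjusted p = 0.0125; -0.41 and adjusted p = 0.083 without siPANAD replicate 1) and by 0.63 in the nucleus (SE 0.14).

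ALB divided by fraction. Albumin mRNA was at 11759.9 and 10965 CPM in siPANAD cytoplasm, against 9186 and 9384 CPM in NC cytoplasm, and at 5646 and 6092 CPM in siPANAD nucleus, against 7909 and 8183 CPM in NC nucleus. The groups did not overlap in either fraction; the cytoplasmic difference of 0.29 (SE 0.15, adjusted p = 0.112) did not pass and the nuclear level fell by 0.46 (SE 0.15). Without HepG2 nucleus siPANAD replicate 1 or 2 the nuclear adjusted p of ALB was 0.172 or 0.0756, and with library totals as the only scaling the difference was -0.29 (adjusted p = 0.0642).

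AHSG and TTR (transthyretin, which carries thyroid hormone and retinol-binding protein) likewise fell in the nucleus, by 0.44 and 0.38 on the log2 scale. TTR was at 62.0 and 63.0 CPM in siPANAD cytoplasm and 15.1 and 16.5 CPM in siPANAD nucleus, against 66.2 and 54.3 CPM in NC cytoplasm and 19.4 and 21.7 CPM in NC nucleus. Both nuclear calls were lost when 1 of several libraries was left out, with an adjusted p of up to 0.245 for AHSG (without HepG2 nucleus siPANAD replicate 1) and up to 0.195 for TTR (without the same library). With library totals both were lost too, TTR being at -0.22 (adjusted p = 0.213), and with no filter TTR was at -0.35 (adjusted p = 0.073). Transferrin (TF), the iron carrier, ran from 3063 to 3944 CPM over the 8 libraries and passed in neither fraction (-0.11 and -0.20).

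Of the acute phase proteins and protease inhibitors, 4 of 8 tested genes rose and 2 fell in HepG2 cytoplasm (23.7% and 24.2% of all genes). In the nucleus 2 rose and 2 fell (22.0% and 23.6%). SERPINA1, the main inhibitor of neutrophil elastase in plasma, had 17559 and 16885 CPM in siPANAD cytoplasm, against 10017 and 6656 CPM in NC cytoplasm. In the nucleus it had 3890 and 4210.2 CPM after siPANAD, against 5126 and 4510.1 CPM in NC. The cytoplasmic libraries did not overlap and SERPINA1 rose 2.07-fold there (log2 1.05, SE 0.17, adjusted p = 1.7e-05), while the nuclear difference lay on the other side of 0 (-0.25, SE 0.17, adjusted p = 0.243).

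SERPINC1 (antithrombin, the inhibitor of thrombin and factor Xa) rose by 0.56 on the log2 scale in the cytoplasm, and SERPINF2 (the inhibitor of plasmin) rose by 0.41 and 0.59 in cytoplasm and nucleus. ITIH3, a heavy chain of the inter-alpha-trypsin inhibitors that bind hyaluronan, rose by 0.37 and 0.35, and its relative ITIH2 fell by 0.57 and 1.05. ITIH2 was at 713 and 728 CPM in siPANAD cytoplasm and 568 and 597 CPM in siPANAD nucleus, against 1146 and 989.9 CPM in NC cytoplasm and 1304 and 1109.5 CPM in NC nucleus. The nuclear fall of ITIH2 was 2.07-fold (SE 0.14 on the log2 scale, adjusted p = 1.1e-06), with no overlap. SERPIND1 (heparin cofactor II, another thrombin inhibitor) fell by 0.36 and 0.72.

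Several of these small changes rested on single libraries. SERPINF2 in the cytoplasm had an adjusted p of 0.297 without HepG2 cytoplasm NC replicate 2 and of 0.114 and 0.0659 without siPANAD replicates 1 and 2. ITIH3 in the cytoplasm had 0.128 without NC replicate 2 and 0.285 without siPANAD replicate 2, and in the nucleus 0.106 to 0.185 without NC replicate 1 or either siPANAD library. SERPIND1 in the cytoplasm had 0.662 without NC replicate 1 (a log2 difference of -0.08) and 0.0593 to 0.115 without any of 4 siPANAD libraries. ORM1, the acid glycoprotein of the acute phase, varied within groups by more than between them in the cytoplasm, at 499.7 and 608 CPM after siPANAD and 550.1 and 326 CPM in NC, and may share reads with ORM2. A2M, the wide-range protease trap alpha-2-macroglobulin, gave 0.24 and -0.02 on the log2 scale and passed in neither fraction. SERPING1, the C1 inhibitor, had 0 to 7 counts per library and was not tested.

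Of the coagulation proteins in HepG2, 3 of 7 tested genes rose and 1 fell in the cytoplasm (23.7% and 24.2% of all genes). In the nucleus 5 rose and 1 fell (22.0% and 23.6%), and the 5 include F13B, whose filter path is given below. The prothrombin gene F2, whose product is cut to thrombin, was the one that fell. It was at 695 and 650.3 CPM in siPANAD cytoplasm and 628 and 592 CPM in siPANAD nucleus, against 1103 and 888 CPM in NC cytoplasm and 779 and 944 CPM in NC nucleus. Both fractions were separated, with falls of 0.57 (SE 0.14, adjusted p = 0.00212) and 0.50 (SE 0.14, adjusted p = 0.00653); the nuclear adjusted p was 0.0845 without HepG2 nucleus NC replicate 2 and 0.0786 without siPANAD replicate 2.

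Factor XII (F12), which starts the contact pathway, had 51.4 and 60.6 CPM in siPANAD nucleus, against 12 and 17.7 CPM in NC nucleus. In the cytoplasm it had 20.5 and 18.0 CPM after siPANAD, against 16.4 and 12.3 CPM in NC. It rose 3.77-fold in the nucleus (log2 1.91, SE 0.17, adjusted p = 6.8e-09) and its cytoplasmic difference of 0.44 did not pass (SE 0.18, adjusted p = 0.0508). Of the exonic bases of F12, 14.4% lie opposite GRK6, a kinase gene that fell by 0.78 in the cytoplasm and 0.84 in the nucleus.

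F10, which as factor Xa cuts prothrombin, rose by 0.91 in the cytoplasm and 0.84 in the nucleus (SE 0.15 each), and F5, its cofactor, by 0.80 and 0.53 (SE 0.13 each). F11, the factor that activates factor IX, rose by 0.62 and 1.16, with 10.5% of its exonic bases opposite the antisense gene F11-AS1. F13B, the carrier subunit of the fibrin-linking enzyme, had 29 and 28 counts in siPANAD nucleus, against 12 and 7 in NC nucleus. Its difference was 1.40 (SE 0.40, adjusted p = 0.00607), and 1.03 without HepG2 nucleus NC replicate 2. F13B passed the low-count filter only through its siPANAD nucleus libraries, so nothing is read from this rise. F7, whose product starts the cascade with tissue factor, gave -0.24 and -0.19 and passed in neither fraction. KNG1, the kininogen precursor, had 1 to 16 counts per library and was not tested.

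Fibrinogen is built from 3 chains whose genes lie side by side on chromosome 4 (GRCh38), FGB at 154562956-154571086 on the plus strand and FGA at 154583126-154590766 and FGG at 154604134-154612967 on the minus strand. All 3 fell in both fractions of SNU-449, and FGA and FGB fell in both fractions of HepG2, where FGG did not pass. Promoter windows of RefSeq (GRCh38.p14) run from 250 bases before to 50 after a RefSeq start. They are shown for the 3 genes because they moved together, and for C5 because it moved in opposite directions in the lines. These 4 were chosen after their values were seen. FGB and C5 had 2 windows each, and the one with the lower coordinate is shown. The capital letter marks the RefSeq start of the window, at 154590742 for FGA, 154562980 for FGB, 154612656 for FGG and 121050275 for C5. For the fibrinogen genes these starts differ from the gene ends given above, and the FGG window does not reach the gene end given above. The windows are chr4:154590693-154590992 (minus strand), chr4:154562730-154563029 (plus strand), chr4:154612607-154612906 (minus strand) and chr9:121050226-121050525 (minus strand), and each is written 5′ to 3′ on the strand of its gene.
FGA: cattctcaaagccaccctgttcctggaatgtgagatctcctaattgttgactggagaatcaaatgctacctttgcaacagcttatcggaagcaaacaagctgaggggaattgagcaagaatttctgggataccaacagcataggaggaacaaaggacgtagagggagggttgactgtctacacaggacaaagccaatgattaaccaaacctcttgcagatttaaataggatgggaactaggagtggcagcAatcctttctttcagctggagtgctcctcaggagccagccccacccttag
FGB: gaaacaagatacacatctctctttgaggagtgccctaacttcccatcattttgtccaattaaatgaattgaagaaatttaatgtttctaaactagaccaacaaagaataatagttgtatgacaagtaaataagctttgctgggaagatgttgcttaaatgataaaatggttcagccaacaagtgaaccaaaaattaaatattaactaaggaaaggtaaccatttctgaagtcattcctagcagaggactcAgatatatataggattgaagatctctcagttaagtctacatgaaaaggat
FGG: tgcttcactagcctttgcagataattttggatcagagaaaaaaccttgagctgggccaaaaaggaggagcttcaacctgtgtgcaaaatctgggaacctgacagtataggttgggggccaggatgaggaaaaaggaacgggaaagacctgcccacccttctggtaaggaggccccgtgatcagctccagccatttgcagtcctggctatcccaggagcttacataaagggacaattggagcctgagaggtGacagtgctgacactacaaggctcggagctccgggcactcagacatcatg
C5: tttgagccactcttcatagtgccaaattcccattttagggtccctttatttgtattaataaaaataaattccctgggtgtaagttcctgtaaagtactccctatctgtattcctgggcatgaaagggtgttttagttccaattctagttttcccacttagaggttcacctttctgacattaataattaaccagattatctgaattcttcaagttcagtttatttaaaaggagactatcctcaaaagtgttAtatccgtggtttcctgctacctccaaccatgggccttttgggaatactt

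RefSeq windows were at hand for 35 of the 44 members, and letters were searched on both strands. The HNF4 letters CAAAGTCCA were in 2 (AHSG and F10), and the C/EBP letters TTGCGCAA in none of the 35, against 0.472% and 0.172% of all 27305 genes with a window. A match is a run of letters and not a bound site. Letters of HNF1, also planned, were not searched, and nothing is said of them here.

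FGA had 197 and 210.0 CPM in HepG2 siPANAD cytoplasm and 226 and 223 CPM in siPANAD nucleus, against 328 and 298 CPM in NC cytoplasm and 382 and 410.5 CPM in NC nucleus. FGB had 45.0 and 50.9 CPM in siPANAD cytoplasm and 39.3 and 41.3 CPM in siPANAD nucleus, against 85.7 and 70.8 CPM in NC cytoplasm and 103 and 85.8 CPM in NC nucleus. No siPANAD library reached an NC library of its fraction: FGA fell by 0.62 and 0.82 on the log2 scale (SE 0.13 each; adjusted p = 2.3e-04 and 9.1e-06) and FGB by 0.70 and 1.23 (SE 0.14 and 0.13; adjusted p = 1.2e-04 and 4.5e-08). FGG had 314 and 305 CPM in siPANAD cytoplasm and 293 and 240.3 CPM in siPANAD nucleus, against 347 and 391 CPM in NC cytoplasm and 319.7 and 316 CPM in NC nucleus. These groups did not overlap either, but the differences of -0.26 and -0.25 did not pass (adjusted p = 0.117 and 0.123). The cytoplasmic one passed with library totals as the only scaling (-0.37, adjusted p = 0.0175), with no filter (-0.34, adjusted p = 0.0408) and without HepG2 cytoplasm NC replicate 1 (-0.34, adjusted p = 0.0407).

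In SNU-449, FGB had 21.8 and 23.7 CPM in siPANAD cytoplasm and 62.8 and 61.1 CPM in siPANAD nucleus, against 68.4 and 54.8 CPM in NC cytoplasm and 207 and 172 CPM in NC nucleus. FGG had 10.7 and 12.7 CPM in siPANAD cytoplasm and 25.7 and 25.1 CPM in siPANAD nucleus, against 35.1 and 27.5 CPM in NC cytoplasm and 69.8 and 54.8 CPM in NC nucleus. FGA was the lowest of the 3, at 3.02 and 3.65 CPM in siPANAD cytoplasm and 5.30 and 5.09 CPM in siPANAD nucleus, against 9.02 and 8.93 CPM in NC cytoplasm and 13.9 and 9.32 CPM in NC nucleus. Every siPANAD library lay below every NC library of its fraction. In the cytoplasm the chains fell by nearly the same amount, FGA by 1.42 (SE 0.22), FGB by 1.43 (SE 0.12, adjusted p = 1.2e-11) and FGG by 1.42 (SE 0.15) on the log2 scale. In the nucleus the falls were 1.16 (SE 0.17), 1.61 (SE 0.11, adjusted p = 6.9e-14) and 1.30 (SE 0.12), and none of the 3 shifted its nucleus to cytoplasm ratio.

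**Figure D3:**
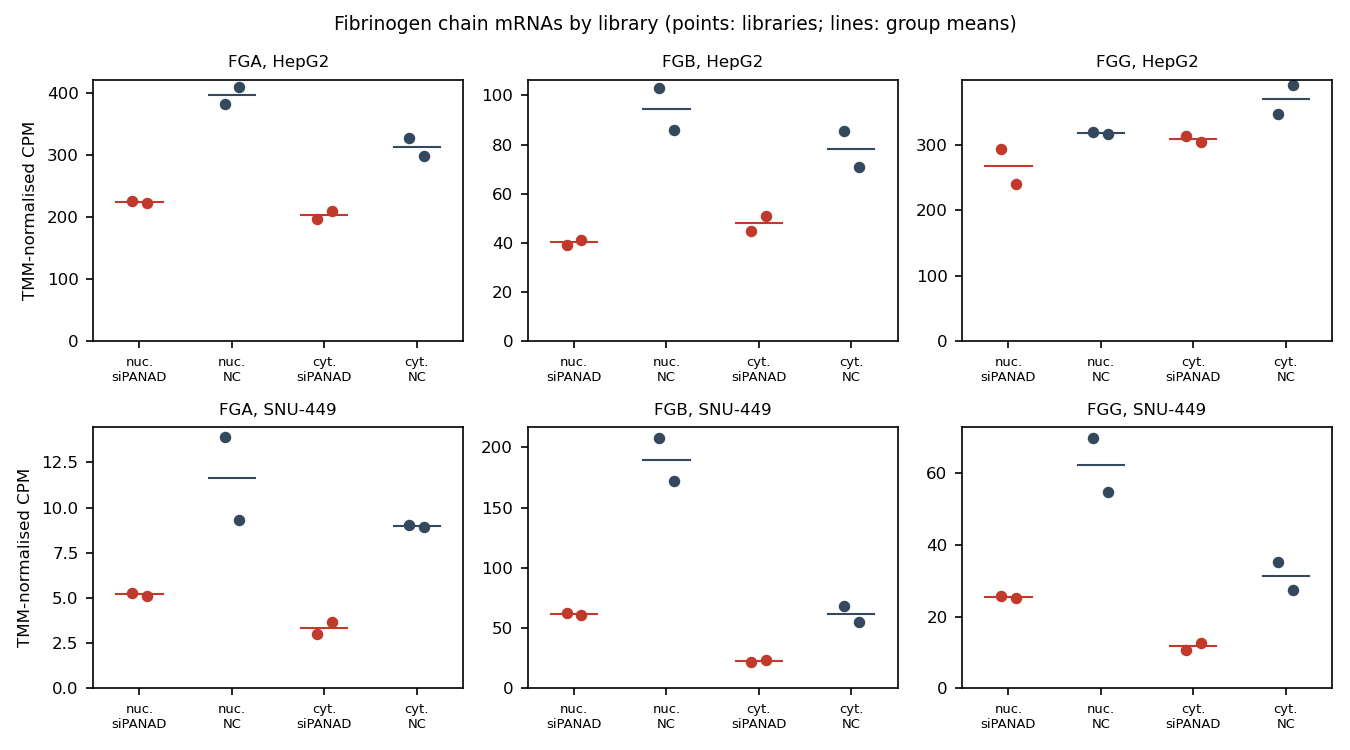
CPM of FGA, FGB and FGG in each library of HepG2 (top) and SNU-449 (bottom) on linear axes that differ between panels, with siPANAD left of NC, first for the nucleus and then for the cytoplasm. Points are libraries and lines are means of 2. In SNU-449 all siPANAD points of the 3 genes lie below the NC points; in HepG2 the gap is clear for FGA and FGB and small for FGG.

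Of the protein C system, which shuts off thrombin formation, 1 of 2 tested genes rose in HepG2 cytoplasm (23.7% of all genes). In the nucleus 0 changed by edgeR, also 0 at an unadjusted p under 0.05 and 0 by DESeq2 (by edgeR 22.0% of all genes rose and 23.6% fell). PROS1, the cofactor protein S, had 75.4 and 70.8 CPM in siPANAD cytoplasm, against 43.7 and 58.4 CPM in NC cytoplasm. It rose by 0.51 (SE 0.14, adjusted p = 0.00308) with no overlap, and had an adjusted p of 0.0548 without HepG2 cytoplasm NC replicate 1 and 0.0558 without siPANAD replicate 1; reads may be shared with a near-identical pseudogene. PROC, protein C itself, gave -0.09 and 0.26 and passed in neither fraction, and was 1.94-fold higher in the NC nucleus (666 and 767 CPM) than in the NC cytoplasm (415 and 325 CPM). PLG, plasminogen, had 0 to 5 counts per library and was not tested.

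Complement held the largest single changes in HepG2. In the cytoplasm 6 of 12 tested genes rose and 3 fell (23.7% and 24.2% of all genes). In the nucleus 7 rose and 2 fell (22.0% and 23.6%). C8A and C8B, chains of a component of the membrane pore, rose in both fractions. C8B had 7.36 and 10.2 CPM in siPANAD cytoplasm and 8.53 and 8.4 CPM in siPANAD nucleus, against 2.10 and 2.06 CPM in NC cytoplasm and 2.51 and 2.73 CPM in NC nucleus. C8A had 10.5 and 8.94 CPM in siPANAD cytoplasm and 16.6 and 17.1 CPM in siPANAD nucleus, against 2.96 and 3.64 CPM in NC cytoplasm and 4.48 and 4.42 CPM in NC nucleus. The groups were far apart in both fractions: C8B rose 4.22-fold and 3.22-fold (log2 2.08, SE 0.23, and 1.69, SE 0.21) and C8A 2.89-fold and 3.79-fold (log2 1.53, SE 0.20, and 1.92, SE 0.18). C6, which joins the complex before C8, had only 16 and 21 counts in siPANAD cytoplasm and 9 and 11 in NC cytoplasm. It rose by 1.47 (SE 0.41, adjusted p = 0.00449), which was lost without HepG2 cytoplasm NC replicate 2 (1.17, adjusted p = 0.0733) or siPANAD replicate 2 (1.25, adjusted p = 0.0613).

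Of the alternative pathway, CFB (factor B, the catalytic part of its C3 convertase) had 156 and 206 CPM in HepG2 siPANAD nucleus, against 42.5 and 38.0 CPM in NC nucleus. In the cytoplasm it had 27.1 and 21.8 CPM after siPANAD, against 15.3 and 12.7 CPM in NC. It rose 4.5-fold in the nucleus (log2 2.17, SE 0.15, adjusted p = 1.0e-11) and 1.76-fold in the cytoplasm (log2 0.82, SE 0.16, adjusted p = 1.7e-04). C2 and an unnamed gene, both annotated on its strand, together cover 45.5% of its exonic bases, and how this divides between them was not computed. The unnamed gene had a mean of 0.0 to 0.5 counts in the HepG2 groups. C2 did not pass in either fraction (0.30 and 0.23 on the log2 scale). CFI, the protease that inactivates C3b, had 126 and 124 CPM in siPANAD nucleus and 20.6 and 14.0 CPM in siPANAD cytoplasm, against 34.6 and 31.2 CPM in NC nucleus and 7.66 and 8.97 CPM in NC cytoplasm. All siPANAD libraries were higher, and CFI rose 3.80-fold in the nucleus (log2 1.93, SE 0.14) and 2.05-fold in the cytoplasm (log2 1.04, SE 0.17); 32.0% of its exonic bases are shared with an unnamed gene that had 0 counts.

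C3, the protein on which the 3 pathways meet, had 4043 and 3988 CPM in HepG2 siPANAD cytoplasm and 4454 and 4806 CPM in siPANAD nucleus, against 3814 and 2727 CPM in NC cytoplasm and 3406 and 3242 CPM in NC nucleus. It rose by 0.48 in the nucleus (SE 0.16, adjusted p = 0.0158) and not in the cytoplasm (0.30, SE 0.16, adjusted p = 0.127), where NC replicate 1 lay close to the siPANAD libraries and the difference was 0.56 without it (adjusted p = 9.4e-04). The nuclear call was lost without HepG2 nucleus NC replicate 2 (adjusted p = 0.0758), siPANAD replicate 1 (0.0551) or siPANAD replicate 2 (0.13). C5, which is cut next and starts the pore, had 29 and 25 CPM in siPANAD cytoplasm and 51.6 and 51.5 CPM in siPANAD nucleus, against 43.8 and 46.0 CPM in NC cytoplasm and 119 and 106 CPM in NC nucleus. It fell by 0.73 (SE 0.13, adjusted p = 5.2e-05) and 1.12 (SE 0.12, adjusted p = 5.8e-08), with no overlap.

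The initiating proteases parted ways. MASP1, a protease of the lectin pathway, had 5.52 and 5.10 CPM in HepG2 siPANAD cytoplasm and 2.92 and 4.04 CPM in siPANAD nucleus, against 15.5 and 13.4 CPM in NC cytoplasm and 10.0 and 10.3 CPM in NC nucleus. Its libraries were well apart and it had the largest falls among the tested members, 2.71-fold in the cytoplasm (log2 -1.44, SE 0.19) and 2.93-fold in the nucleus (log2 -1.55, SE 0.19). MBL2, the lectin that recruits it, had 16 and 16 counts in siPANAD cytoplasm and 30 and 63 in NC cytoplasm. MBL2 fell by 0.91 there (SE 0.32, adjusted p = 0.0214) and had an adjusted p of 0.0784 to 0.139 when NC replicate 2 or either siPANAD library of the HepG2 cytoplasm was left out. C1R, the first protease of the classical pathway, rose by 0.82 and 1.15 (SE 0.14 each; adjusted p = 3.6e-05 and 2.0e-07), and C1S, which it activates, by 0.78 in the nucleus only (SE 0.12; 0.15 in the cytoplasm). Of the exonic bases of C1R, 11.4% are shared on its strand with C1RL. That gene had a mean of 2787 counts in HepG2 NC nucleus, where C1R had 558 and 622. The part of C1RL in the C1R values was not tested in either line. MASP2, which cuts C4 and C2 in the lectin pathway, gave 0.15 and 0.20 and passed in neither.

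The 2 fractions of HepG2 differed in the response of 7 members, tested as the nuclear minus the cytoplasmic log2 fold change. The ratio shifted toward the nucleus in 4 (4.91% of all genes did so) and toward the cytoplasm in 3 (4.98% of all genes). F12 shifted by 1.47 (SE 0.25, adjusted p = 6.1e-04), CFB by 1.35 (SE 0.22), CFI by 0.89 (SE 0.22) and C1S by 0.63 (SE 0.17). SERPINA1 shifted by -1.30 (SE 0.24, adjusted p = 0.00112), AHSG by -0.78 (SE 0.22) and ALB by -0.75 (SE 0.21).

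AHSG had 11499 and 10991 CPM in siPANAD cytoplasm and 4248 and 4799 CPM in siPANAD nucleus, against 9878 and 7872 CPM in NC cytoplasm and 5685 and 6571 CPM in NC nucleus. As for ALB and SERPINA1, the siPANAD libraries lay above NC in the cytoplasm and below NC in the nucleus. With library totals as the only scaling, 8 members shifted toward the nucleus and 1 toward the cytoplasm, while the median over all genes moved to 0.27; ALB (-0.47, adjusted p = 0.0726) and AHSG (-0.51, adjusted p = 0.0624) then lost their shifts. Of the 7 shifts, those of AHSG, ALB and C1S had an adjusted p of up to 0.167, 0.155 and 0.0848 when 1 of the HepG2 siPANAD libraries was left out, AHSG had 0.078 without nucleus NC replicate 2, C1S 0.0619 without nucleus NC replicate 1, and CFI had 0.0942 without cytoplasm siPANAD replicate 2. Without HepG2 cytoplasm siPANAD replicate 2, 2 members shifted toward the nucleus and 1 toward the cytoplasm. The count toward the cytoplasm was also 1 without any other HepG2 siPANAD library, and 7 without cytoplasm NC replicate 1. NEAT1 shifted toward the nucleus by 1.40 and MALAT1 gave 0.16 (not past the threshold), and the part of nuclear RNA yield in the shifts was not tested.

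**Figure D4:**
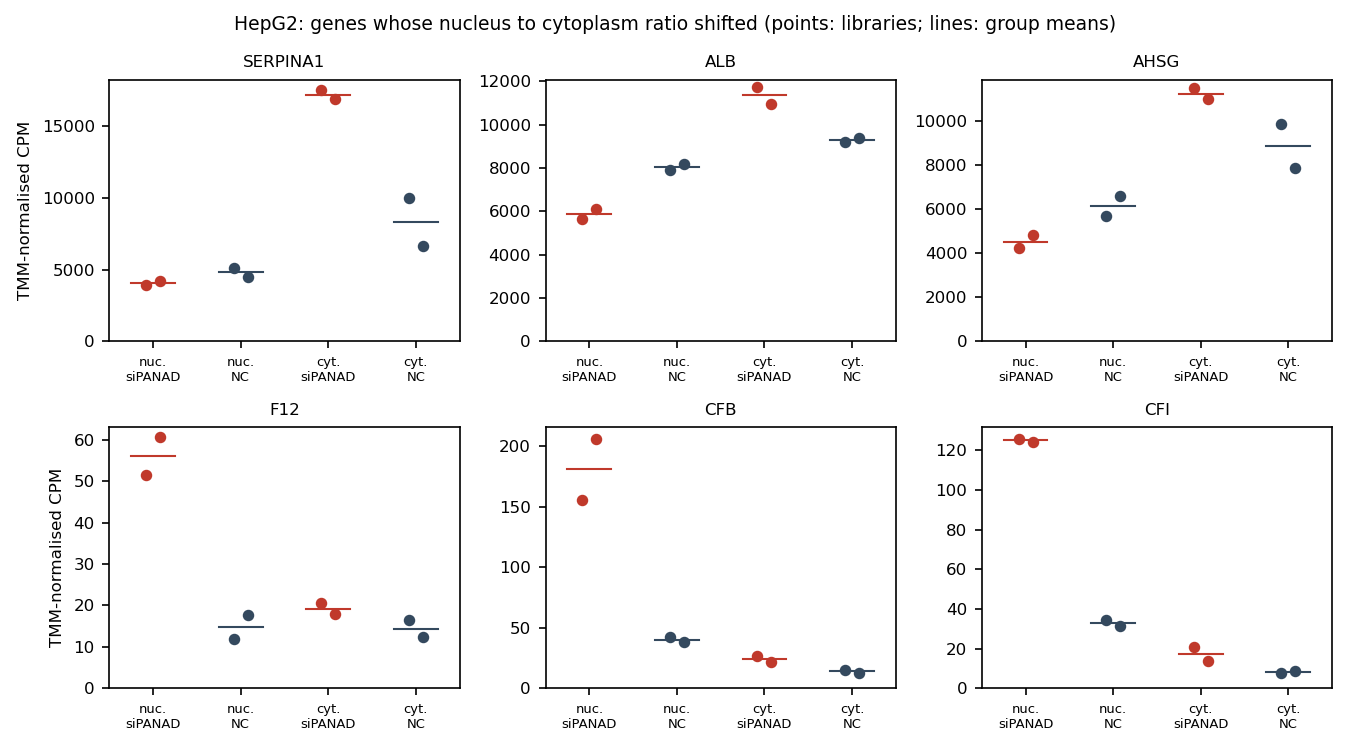
CPM of SERPINA1, ALB, AHSG, F12, CFB and CFI in each HepG2 library on linear axes that differ between panels, with siPANAD left of NC, first for the nucleus and then for the cytoplasm; lines are means of 2. SERPINA1, ALB and AHSG after siPANAD lie above NC in the cytoplasm and below NC in the nucleus, while F12, CFB and CFI lie farther above NC in the nucleus than in the cytoplasm.

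In HepG2 NC cells 10 members were higher in the nucleus than in the cytoplasm (39.4% of all genes) and 11 lower (37.7%), with a median of 0.02 against 0.04 over all genes. CFI had the highest nuclear ratio (log2 1.97, SE 0.16), before F5 (1.63, SE 0.13) and CFB (1.54, SE 0.16). TTR had the lowest (-1.55, SE 0.14), before HP (-0.84, SE 0.14) and SERPINA1 (-0.79, SE 0.17). Trimmed-mean scaling sets the typical gene of both fractions level. With library totals alone 27 members were higher and 1 lower, and the median of all genes was 0.66. The share of all genes called under that scaling is not given, so nothing is read from these counts. HP (-0.22, adjusted p = 0.167) and SERPINA1 (-0.16, adjusted p = 0.327) were then no longer called. C6, F10, FGA, ITIH3, MASP1, MBL2, ORM1 and SERPIND1, called here with smaller ratios, each lost the call when a library was left out, at adjusted p-values of 0.0537 to 0.385.

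In SNU-449 the filter kept 20 members and left out 24, among them ALB, TTR, AHSG, HP, SERPINC1 and most coagulation factors. In the cytoplasm 3 rose (19.6% of all 17895 genes) and 7 fell (20.1%), with a median of -0.51 against 0.04 over all genes. In the nucleus 6 rose (22.1% of all genes) and 5 fell (23.9%), with a median of -0.07 against -0.01, and with library totals alone 7 rose and 4 fell. SERPINA1, C3 and C5 rose in both fractions and AFP, FGA, FGB and FGG fell in both. TF, ITIH2, SERPINF2, F2, F10, PROC, PROS1 and CFI passed in neither. Without SNU-449 nucleus NC replicate 1 or siPANAD replicate 1, 3 members fell in the nucleus, and without cytoplasm siPANAD replicate 2, 2 rose in the cytoplasm. DESeq2 did not call AFP in either fraction (adjusted p = 0.129 and 0.0703), SERPINA1 (0.0804) and CFB (0.1) in the cytoplasm, or HPX (0.309) and MASP2 (0.226) in the nucleus. The mesenchymal list summed to 2391.0 to 2815.8 CPM in siPANAD cytoplasm and 2567.5 to 2605.0 in siPANAD nucleus, against 2589.8 to 2787.2 in NC cytoplasm and 3547.6 to 3657.5 in NC nucleus. Of its 11 tested genes 1 rose and 7 fell in the cytoplasm and 6 fell in the nucleus, where 0 rose by edgeR, at an unadjusted p under 0.05 or by DESeq2. The part of this list in the members' changes was not tested.

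The C3 level of SNU-449 was 126 and 98.7 CPM in siPANAD cytoplasm and 478 and 529 CPM in siPANAD nucleus, against 70.0 and 62.9 CPM in NC cytoplasm and 165 and 163 CPM in NC nucleus. Groups were far apart, and C3 rose 1.69-fold in the cytoplasm (log2 0.76, SE 0.11, adjusted p = 4.0e-07) and 3.08-fold in the nucleus (log2 1.62, SE 0.10, adjusted p = 1.2e-14). C5 had 5.18 and 4.08 CPM in siPANAD cytoplasm and 15.0 and 14.0 CPM in siPANAD nucleus, against 1.98 and 1.42 CPM in NC cytoplasm and 5.81 and 8.47 CPM in NC nucleus. It rose 2.72-fold (log2 1.44, SE 0.27) and 2.03-fold (log2 1.02, SE 0.16), again with no overlap.

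C1R of SNU-449 went opposite ways in the fractions. It had 9.05 and 7.30 CPM in siPANAD cytoplasm, against 12.7 and 11.7 CPM in NC cytoplasm, and 21.8 and 25.8 CPM in siPANAD nucleus, against 14.0 and 12.9 CPM in NC nucleus. It fell by 0.58 in the cytoplasm (SE 0.16, adjusted p = 0.00398; -0.41 and adjusted p = 0.107 without SNU-449 cytoplasm siPANAD replicate 2) and rose by 0.82 in the nucleus (SE 0.13). CFB, at 3 and 3 counts in siPANAD cytoplasm and 71 and 64 in siPANAD nucleus, against 10 and 9 in NC cytoplasm and 15 and 21 in NC nucleus, did the same, with -1.59 (SE 0.62, adjusted p = 0.0381) and 1.89 (SE 0.28, adjusted p = 1.2e-06). The cytoplasmic fall of CFB was lost without any 1 of the 4 SNU-449 cytoplasm libraries (adjusted p = 0.0796 to 0.151).

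C1S had 3.56 and 2.93 CPM in siPANAD cytoplasm and 9.53 and 10.4 CPM in siPANAD nucleus, against 6.09 and 7.87 CPM in NC cytoplasm and 12.3 and 11.4 CPM in NC nucleus. The cytoplasmic libraries were clearly apart and it fell by 1.11 there (SE 0.21, adjusted p = 4.5e-05; -0.25 in the nucleus). MASP2 had 87 and 93 counts in siPANAD nucleus and 46 and 70 in NC nucleus, and rose by 0.63 (SE 0.22, adjusted p = 0.0216), with an adjusted p of 0.0719 to 0.274 without nucleus NC replicate 1 or either nucleus siPANAD library.

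SERPINA1 was 3.40 and 3.36 CPM in SNU-449 siPANAD cytoplasm and 3.55 and 3.65 CPM in siPANAD nucleus, against 1.61 and 2.27 CPM in NC cytoplasm and 1.68 and 1.62 CPM in NC nucleus. It rose in both, by 0.80 (SE 0.27, adjusted p = 0.0153; adjusted p = 0.153 without cytoplasm NC replicate 1 and 0.0535 without cytoplasm siPANAD replicate 2) and by 1.12 (SE 0.23, adjusted p = 9.6e-05). AFP had 10 and 17 counts in siPANAD cytoplasm and 2 and 6 in siPANAD nucleus, against 30 and 29 in NC cytoplasm and 12 and 13 in NC nucleus. It fell by 1.08 (SE 0.38, adjusted p = 0.0203) and 1.61 (SE 0.57, adjusted p = 0.0202), both calls being lost without an NC library or siPANAD replicate 1 of the fraction (adjusted p = 0.0531 to 0.212), while the nuclear value was -2.55 without siPANAD replicate 2. HPX fell by 0.70 in the nucleus (SE 0.29, adjusted p = 0.0468), at 30 and 40 counts after siPANAD and 52 and 61 in NC, and was lost without any 1 of the 4 SNU-449 nucleus libraries (adjusted p = 0.0623 to 0.295). F2 had 9 and 7 counts in siPANAD cytoplasm and 32 and 34 in siPANAD nucleus, against 11 and 8 in NC cytoplasm and 40 and 41 in NC nucleus, and passed in neither.

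The ratio shifted toward the nucleus in 4 of the 20 members (9.69% of all genes), all complement genes: CFB by 3.48 (SE 0.67), C1R by 1.40 (SE 0.21, adjusted p = 5.2e-06), C3 by 0.86 (SE 0.14) and C1S by 0.86 (SE 0.26). C1S had an adjusted p of 0.071 to 0.136 without cytoplasm NC replicate 2, cytoplasm siPANAD replicate 2 or nucleus siPANAD replicate 2. It shifted toward the cytoplasm in 0 members by edgeR (10.5% of all genes), also in 0 at an unadjusted p under 0.05 and in 0 by DESeq2. NEAT1 and MALAT1 shifted toward the nucleus too, by 1.13 and 0.70, and the part of nuclear RNA yield was not tested. In NC, 15 of the 20 were higher in the nucleus (43.5% of all genes) and 1 lower (36.2%), with a median of 1.32 against 0.22. Of the 20, TF, HPX, ITIH2, F10, CFI and MASP2 had under 10 counts in every cytoplasm library and passed the filter through the nucleus, so this count supports nothing. ITIH2 was at 8 and 9 counts in NC nucleus and 0 and 0 in NC cytoplasm, CFI at 18 and 18 and 1 and 0, and MASP2 at 46 and 70 and 4 and 2. AFP was the 1 lower (log2 -1.98, SE 0.38). Among the 15, FGA had an adjusted p of up to 0.798 (without nucleus NC replicate 1) and TF of 0.0756 without the same library.

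**Figure D5:**
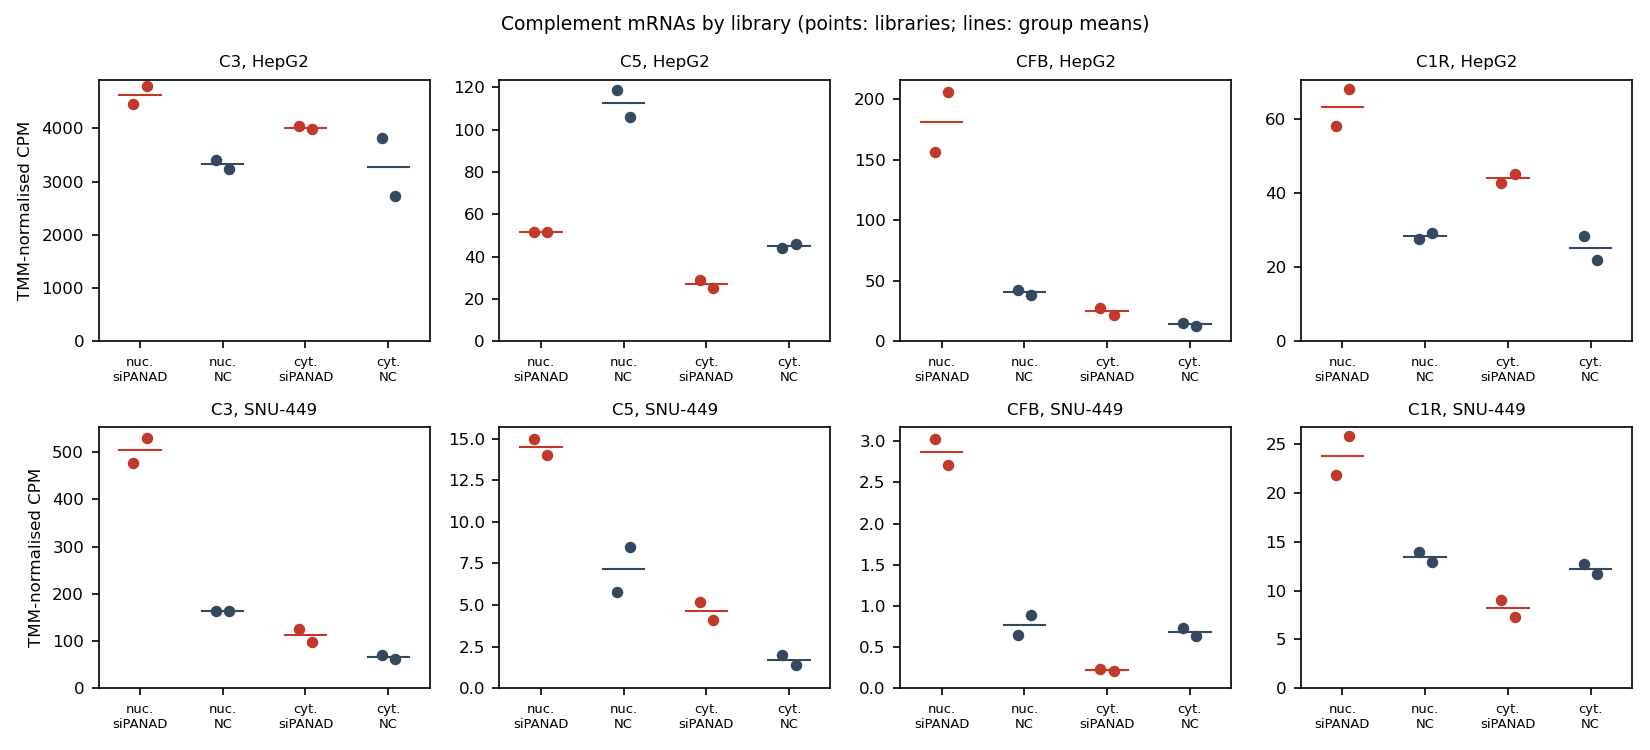
CPM of C3, C5, CFB and C1R in each library of HepG2 (top) and SNU-449 (bottom) on linear axes that differ between panels, with siPANAD left of NC, first for the nucleus and then for the cytoplasm; lines are means of 2. C5 after siPANAD lies below NC in HepG2 and above NC in SNU-449; CFB and C1R lie above NC in both HepG2 fractions and in SNU-449 only in the nucleus.

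Whether a member answered differently in the lines was tested in 1 fit of the 16 libraries, as the HepG2 minus the SNU-449 log2 fold change. In the cytoplasm 6 members differed upward (8.98% of all 20459 genes) and 1 downward (9.17%), and in the nucleus 5 upward (9.61%) and 5 downward (11.3%). Among the nuclear ones SERPINC1 and AHSG had failed the SNU-449 filter and entered through their HepG2 counts, so nothing is read from them. With library totals alone the cytoplasmic counts were 6 and 2, while the median of all genes moved to -0.18, and the nuclear counts 7 and 5. C5 differed most clearly, by -2.14 in the cytoplasm (SE 0.29, adjusted p = 1.8e-07) and -2.13 in the nucleus (SE 0.19, adjusted p = 5.5e-12), falling in HepG2 and rising in SNU-449.

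C1R (1.44, SE 0.22), C1S (1.30, SE 0.23) and FGG (1.2, SE 0.20) also differed in the cytoplasm. CFB differed by 2.45 in the cytoplasm (SE 0.62, adjusted p = 0.0033), on the 3 to 10 counts of SNU-449, and by 0.29 in the nucleus, where it rose in both lines and did not pass. FGA (0.84; 0.71 and adjusted p = 0.094 without SNU-449 cytoplasm siPANAD replicate 1) and FGB (0.77) fell in both lines, further in SNU-449 cytoplasm. In the nucleus C3 differed by -1.13 (SE 0.19, adjusted p = 1.3e-05), the rise being larger in SNU-449, SERPINA1 by -1.36 (SE 0.28) and C1S by 1.04 (SE 0.18).

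The nuclear differences of HPX (2.42), CFI (2.31) and ITIH2 (-1.88) rested on 8 to 61 counts per SNU-449 nucleus library. That of ITIH2 was -1.26 without SNU-449 nucleus siPANAD replicate 2. ITIH2 passed the SNU-449 filter only through siPANAD nucleus (10 and 21 counts, against 8 and 9 in NC nucleus), so nothing is read from its difference. Without SNU-449 nucleus NC replicate 2, 8 members differed upward in the nucleus. Without HepG2 cytoplasm NC replicate 2, 2 differed downward in the cytoplasm.

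Other genes of the same pathways gave a wider frame. Of 28 tested liver plasma genes outside the members, 15 rose and 3 fell in HepG2 cytoplasm (23.7% and 24.2% of all genes). In the nucleus 14 rose and 3 fell (22.0% and 23.6%). The largest were ITIH1, another heavy chain of the inter-alpha-trypsin inhibitors (4.13 and 3.79 on the log2 scale), KLKB1, prekallikrein of the contact pathway (2.77 and 2.21), SERPINA6, the cortisol carrier (2.75 and 2.57), and CP, the copper protein ceruloplasmin (-1.94 and -2.49). In SNU-449, 1 of 21 rose and 2 fell in the cytoplasm (19.6% and 20.1% of all genes). In the nucleus 7 rose and 1 fell (22.1% and 23.9%), while DESeq2 called 3 higher and 1 lower. VTN and KLKB1 passed the SNU-449 filter only through their siPANAD nucleus libraries (23 and 16, and 12 and 11 counts). Nothing is therefore read from them or from the nuclear count of rises. SERPINA6 was at 1.29 and 1.84 in cytoplasm and nucleus.

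Another list held regulators of coagulation and complement that cells make for their own surface and surroundings. In HepG2 2 of 14 rose and 9 fell in the cytoplasm (23.7% and 24.2% of all genes), and 2 rose and 7 fell in the nucleus (22.0% and 23.6%). In SNU-449 11 of 15 fell in the cytoplasm (20.1% of all genes), and 1 rose and 8 fell in the nucleus (22.1% and 23.9%). No gene of this list rose in SNU-449 cytoplasm by edgeR, 2 did so at an unadjusted p under 0.05 and 0 by DESeq2. Tissue factor (F3), which binds factor VII, fell by 2.82 and 1.71 in HepG2, and F2RL1, a receptor cut by coagulation proteases, by 2.44 and 2.35. CD55, which breaks up C3 convertases on the cell's own membrane, fell by 2.31 and 2.34.

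Of 20 genes of the vitamin K cycle and of export from the endoplasmic reticulum, 4 rose and 9 fell in HepG2 cytoplasm. In HepG2 nucleus 2 rose and 10 fell. In SNU-449 cytoplasm and nucleus 5 rose and 6 fell, and 3 rose and 5 fell. For this list and those below, the shares of all genes that rose and fell were 23.7% and 24.2% in HepG2 cytoplasm. They were 22.0% and 23.6% in HepG2 nucleus, 19.6% and 20.1% in SNU-449 cytoplasm, and 22.1% and 23.9% in SNU-449 nucleus. FURIN, the protease that removes the propeptides of secreted factors, fell by 1.70 and 1.35 in HepG2, and LMAN1, the export receptor of factors V and VIII, by 1.46 and 1.26. Of 18 liver transcription factors 3 rose and 7 fell in HepG2 cytoplasm and 4 rose and 7 fell in the nucleus, while of 12 tested in SNU-449 1 rose and 4 fell in the cytoplasm and 1 rose and 5 fell in the nucleus. HNF4A fell in HepG2 by 0.62 in the cytoplasm and 0.33 in the nucleus. Of 12 acute phase signalling genes 1 rose and 8 fell in HepG2 cytoplasm and 2 rose and 3 fell in the nucleus, with SOCS3, a feedback inhibitor of cytokine signalling, at -1.95 and -1.51 and IL6R, the interleukin-6 receptor, at -1.53 and -0.77. In SNU-449 1 rose and 6 fell in the cytoplasm and 1 rose and 5 fell in the nucleus, with IL6ST, the signalling chain of that receptor, at -1.65 and -1.44.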

How the data were processed

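Each line had a table of raw counts, deposited by the authors and used unchanged. Per the labels' protocols, the libraries were directional. Trim Galore 0.6.4, HISAT2 2.2.1 and the build hg38 are named in the submitters' processing notes; the counting program, its annotation and its strand setting are not given in the sources used here. Groups and replicate numbers came from the sample titles. The entry of ANK2, broken over several lines, was left out.

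Genes were filtered with filterByExpr (minimum count 10), scaled by TMM (trimmed mean of M-values) and tested with edgeR 4.0.16 (glmQLFit, robust, and glmQLFTest) in R 4.3.3, with the 8 libraries of a line in 1 fit (17499 genes in HepG2, 17895 in SNU-449) or all 16 (20459 genes) for differences between lines. Tests were two-sided, the threshold was a Benjamini-Hochberg adjusted p under 0.05 over all genes of a contrast; every adjusted p reported was obtained so. Intervals are 95%. The fits were tested on simulated counts. Levels per kb use the longest transcript tagged as principal in GENCODE on GRCh38, or all exonic bases where none was tagged. GENCODE also gave positions and overlaps. Libraries held 16238235 to 30321908 counts, with 3 counts equal to 0.0989 to 0.185 CPM; such limits cover counting error only, since PCR copies could not be told apart. Alternatives were RLE size factors, library totals, no filter, DESeq2 1.42.0, a replicate block, only the groups compared, and leaving out each library. Replicate numbers were not used as pairs in the main fits. Same-numbered libraries' deviations correlated at -0.125 to 0.084, which cannot tell whether their fractions came from the same culture.

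The members and the related lists were chosen with earlier results of these data known, so no list is independent evidence. Values in every library were to be given for ALB, AFP, TTR, SERPINA1, FGA, FGB, FGG, F2 and C3, for the 5 largest rises and 5 largest falls past the threshold in each knockdown contrast, for the 3 largest in each direction elsewhere, and for every member called in SNU-449; of related lists, up to 4 genes per list and contrast, some of which are not reported here. Nothing in the sources says more of the duplicates than that they are biological, so p-values measure the spread between these libraries.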

Additional observations from a re-analysis of the deposited data

Results flagged for a closer look

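The knockdown effect differed between the lines in 15 tests of a member and fraction (edgeR, HepG2 minus SNU-449 log2 fold change, adjusted p under 0.05), counting members that passed the filter in both lines. In the cytoplasm the differences were 0.84 for FGA, 0.77 for FGB, 1.2 for FGG, -2.14 for C5, 2.45 for CFB, 1.44 for C1R and 1.30 for C1S. In the nucleus they were 2.42 for HPX, -1.88 for ITIH2, -1.36 for SERPINA1, 1.06 for FGG, -1.13 for C3, -2.13 for C5, 2.31 for CFI and 1.04 for C1S. ITIH2 passed the SNU-449 filter only through its siPANAD nucleus libraries, so nothing is read from its difference. C5 and CFB in the cytoplasm, and C5 and HPX in the nucleus, were called in both lines with opposite signs, as was C1R in the cytoplasm. Only C5 was so in both fractions. Groups of 2 libraries were too small for a check of single outlying libraries.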

How the results depend on the processing

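Of 88 results on named members, 80 were called. Over 1313 alternatives, 1234 kept direction and side of the threshold, 69 lost a call (22 results at least once), 5 gained one (ALB, FGG and C3 in HepG2 cytoplasm) and 5 reversed; no called result reversed. The reversals were TTR in HepG2 cytoplasm (-0.05 with library totals, -0.02 with no filter, -0.07 without cytoplasm NC replicate 2, and up to 0.20 with another library left out) and F2 in SNU-449 cytoplasm (0.08 without cytoplasm NC replicate 1, 0.04 without cytoplasm siPANAD replicate 2, and down to -0.42). Library totals gave 8 and 1 members in the HepG2 ratio shift, 27 and 1 in the HepG2 nucleus to cytoplasm contrast, and 2 lower in the cytoplasmic line difference, as did no filter. The counts under alternatives stand here without the share of all genes called under the same setting. DESeq2 gave 7 lower in the HepG2 nucleus to cytoplasm contrast and 3 lower in SNU-449 nucleus; the cause was not tested. With a replicate block 16 rose and 8 fell in HepG2 cytoplasm and 16 and 11 in the nucleus. Whether the replicate numbers pair the libraries is not known. Leaving out 1 library gave 12 to 21 higher and 6 to 9 lower in HepG2 cytoplasm, 14 to 19 and 7 to 11 in its nucleus, 2 to 5 and 1 to 7 in its ratio shift, and 9 to 12 and 8 to 11 between its NC fractions. In SNU-449 these were 2 to 4 and 5 to 7, 5 to 7 and 3 to 5, 3 to 5 and 0, and 13 to 16 and 1. Between the lines they were 38 to 39 and 0 (level), 6 and 1 to 2 (cytoplasm) and 5 to 8 and 4 to 5 (nucleus). Member shares of counts without ALB, AFP and SERPINA1 were 1.90% and 2.66% in HepG2 siPANAD cytoplasm and nucleus and 1.83% and 2.50% in NC, and with ribosomal protein genes out of the total 5.03%, 4.29%, 3.79% and 4.38%, and 0.0163% in SNU-449 siPANAD cytoplasm. Low SNU-449 counts limit most carriers and coagulation genes there.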
